A study of Mus musculus with 21 samples.

Results

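Transcripts of 37 genes that make, bind or remodel extracellular matrix, or that mark the fibroblasts which lay it down, were followed through 21 RNA sequencing libraries of sorted mouse T cells. The 37 genes were taken by symbol from a table of 49510 genes, and every symbol matched a row. All libraries came from Foxp3-GFP mice aged 8 weeks, in which a green fluorescent reporter of Foxp3 marks regulatory T cells (Tregs), taken 7 days after myocardial infarction (MI). The 7 groups of 3 libraries were Tregs of the injured heart, conventional T cells (Tconvs) of the injured heart, Tregs of the spleen, of non-draining lymph nodes (NDLN) and of the mediastinal lymph nodes that drain the heart (MLN), and Tconvs of the spleen and of NDLN. No library came from a mouse without infarction, so the values compare tissues after injury and not injury with health. Cells were sorted with magnetic beads and then by flow cytometry, and the labels do not say whether replicates were separate animals or pools, so that p-values measure the spread between these libraries, which may be technical.

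Fibroblasts are the main matrix-producing cells of the heart. After an infarction they become activated and build a scar of fibrillar collagen, into which they place small leucine-rich proteoglycans, matricellular proteins such as periostin, and cross-linking enzymes. T cells are not known as a main source of this matrix. In these bulk libraries a larger number of cells of a type and more RNA per cell cannot be told apart, and a read cannot be assigned to a T cell or to another cell of the sorted sample.

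The libraries held 14515387 to 28323649 counts. Of the genes, 14996 had enough counts to be tested, among them 24 of the 37 members. Levels are in CPM, the counts of a gene scaled to a common library size with TMM factors, which adjust for differences in RNA composition between libraries. Markers of T cells summed to between 5583 and 9616 CPM in heart libraries and between 5579 and 9044 CPM in lymphoid libraries. A set of 5 libraries stood apart by the share of counts from the mitochondrial ribosomal RNA genes, which was 0.0567% to 0.102% in heart Treg 1, heart Tconv 1, heart Tconv 2, MLN Treg 1 and MLN Treg 2, and 0.954% to 12.3% in the other 16. That set holds 3 of the 6 heart libraries and 2 of the 15 lymphoid libraries.

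Most matrix transcripts were found in heart libraries of both T cell types and hardly at all in lymphoid libraries. At least 1 CPM was reached in 106 of the 222 combinations of a member with a heart library (47.7%), and in 37 of the 555 combinations with a lymphoid library (6.67%). Of the 37 members, 31 reached 1 CPM in some heart library and 21 reached 10 CPM there, while 25 stayed under 1 CPM in every lymphoid library. Of those 25, 20 reached 1 CPM in some heart library. These counts at 1 and 10 CPM were not set against the share of all genes, so they only describe the members. The amounts were small, since all members together took 0.0109% to 0.106% of the counts of a heart library. Set against all lymphoid groups together, 20 of the 24 members tested were called higher in heart and 0 lower by edgeR's quasi-likelihood test at an adjusted p under 0.05, against 7.61% of all genes tested called higher and 3.84% called lower. DESeq2 and limma-voom each called 19 members higher, where they called 12.8% and 8.64% of all genes higher. The median fitted log2 fold change of the 24 members was 8.15, and 8.09 with the 4 that had no lymphoid count set to their lower bound, against 0.23 over all genes tested. A member passed the filter mostly through its heart libraries, so the count describes these genes and is no support for them as a group.

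**Figure D1:**
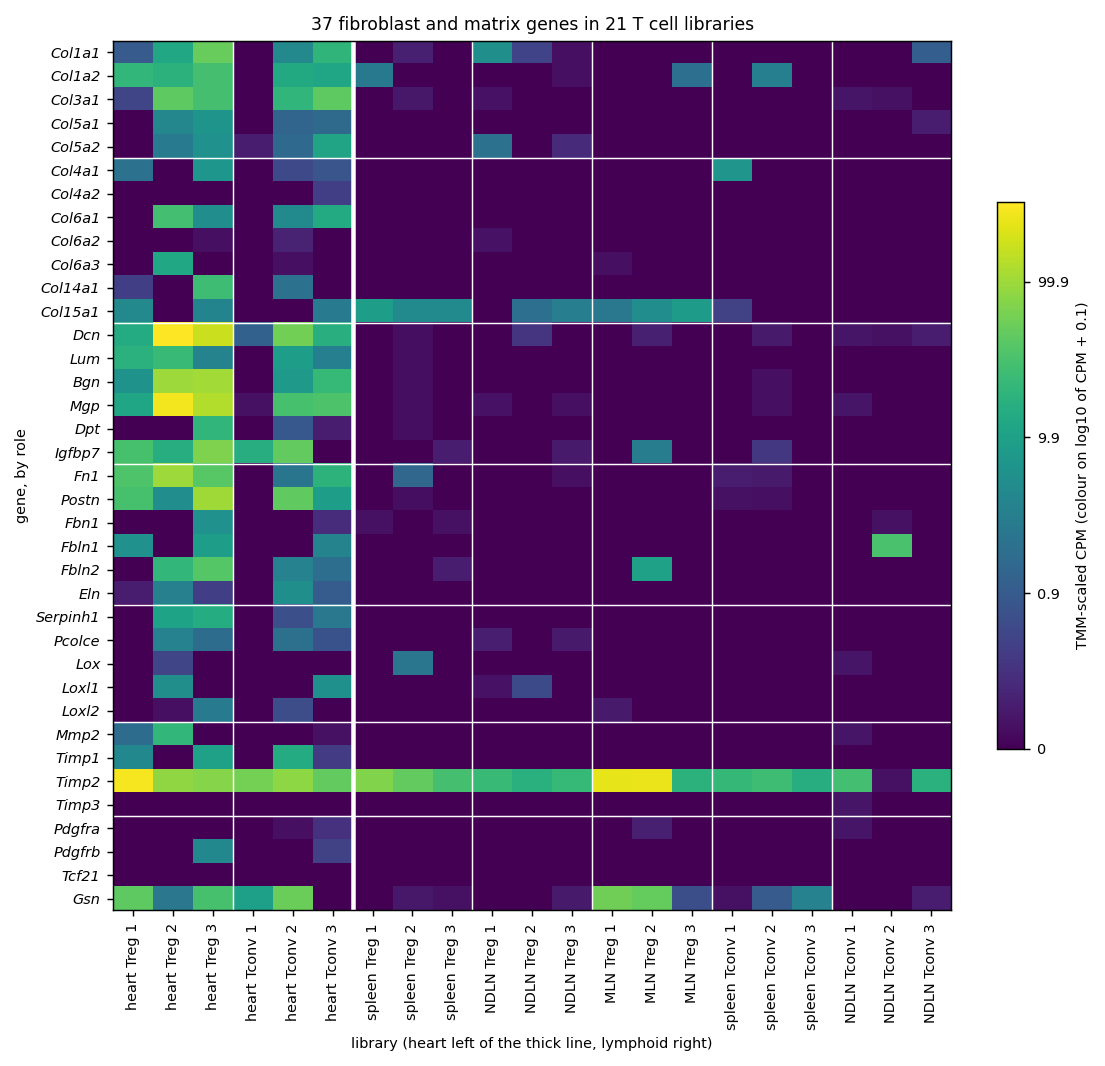
Level of each of the 37 members (rows, ordered by role) in each library (columns), as TMM-scaled CPM on a log10 colour scale. The heart libraries at the left reach 1 CPM in 15, 22 and 27 rows in Tregs 1 to 3 and in 4, 20 and 18 rows in Tconvs 1 to 3. The 15 lymphoid libraries are dark outside Timp2, Gsn, Col15a1 and single entries.

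Over the 34 members other than Timp2, Gsn and Col15a1, which are described further on, the small leucine-rich proteoglycans and binding proteins averaged 259.9 of 435 CPM in heart libraries. They were mainly in heart Treg 2 (744 CPM) and heart Treg 3 (491 CPM), and in heart Tconv 3 they stood below the fibrillar collagens (75.6 against 87.6 CPM). Decorin (Dcn, ENSMUSG00000019929, chromosome 10, 97479609 to 97518143 on GRCm38), a proteoglycan that binds collagen fibrils, stood at 14.4, 323 and 168 CPM in heart Treg libraries 1 to 3 and at 1.13, 58.3 and 16.3 CPM in heart Tconv libraries 1 to 3. Over the 15 lymphoid libraries its lowest and median levels were 0 and its highest was 0.232 CPM. All 6 heart libraries lay above all 15 lymphoid libraries, which held for no other member tested and for 0.66% of all genes tested. The heart libraries together held 14750 Dcn counts and the lymphoid libraries 12, a depth-corrected ratio of 2766 (95% counting interval 1583 to 5355, exact, counting error only), with an adjusted p of 5.81e-06.

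Matrix Gla protein (Mgp, ENSMUSG00000030218, chromosome 6, 136872435 to 136875823), an inhibitor of calcification, kept a steady ratio to Dcn in heart Tregs but not in heart Tconvs. Its levels were 11.8, 283 and 128 CPM in heart Tregs and 0.045, 30.3 and 33.3 CPM in heart Tconvs, against at most 0.0586 CPM in a lymphoid library. The single Mgp read in heart Tconv 1 fell within the lymphoid range, while the other 5 heart libraries lay above it. The ratio of heart to lymphoid counts was 5539 (2373 to 17062), from 12306 against 5 counts, with an adjusted p of 9.50e-06. Corrected for exonic length, Mgp had the highest mean level of the members in heart, at 68.3 CPM per kilobase, ahead of Timp2 with 27.4, Igfbp7 with 24.0 and Dcn with 16.6 CPM per kilobase.

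Biglycan (Bgn), a proteoglycan related to decorin, stood at 6.03, 99.0 and 104 CPM in heart Tregs and at 0, 7.59 and 22.7 CPM in heart Tconvs. Only 2 Bgn counts were found over all lymphoid libraries, a ratio of 6852 (1896 to 56590.2) with an adjusted p of 0.000378. Lumican (Lum), another proteoglycan that regulates collagen fibril assembly, stood at 17.3, 23.3 and 3.64 CPM in heart Tregs and at 0, 8.99 and 3.15 CPM in heart Tconvs, with 1 lymphoid count. Its adjusted p was 0.00356. Igfbp7, a secreted protein that binds insulin-like growth factors and is also made by endothelial cells, stood at 30.2, 15.4 and 66.8 CPM in heart Tregs and at 15.4, 46.4 and 0 CPM in heart Tconvs. Heart Tconv 1, which was near 0 for the other genes of this role, was not low for Igfbp7, and heart Tconv 3 had none. Its highest lymphoid level was 2.83 CPM in MLN Treg 2, and its adjusted p of 0.00260 went to 0.198 with the mitochondrial RNA set as a covariate.

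Dermatopontin (Dpt), which marks quiescent fibroblasts of several tissues, did not pass the filter. It reached 20.3 CPM in heart Treg 3 and at most 0.821 CPM in the other 5 heart libraries, and it had 1 lymphoid count.

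Among the fibrillar collagens, all 5 members were called higher in heart. Col3a1, the chain of type III collagen, stood at 0.44, 43.0 and 29.8 CPM in heart Tregs and at 0, 20.5 and 43.3 CPM in heart Tconvs, with 5 counts over the lymphoid libraries. The ratio was 1518 (649.7 to 4677) and the adjusted p 0.000815. Col1a1 and Col1a2, which together form type I collagen, the main collagen of a mature scar, were also found in single lymphoid libraries. Col1a1 stood at 0.925, 12.8 and 49.8 CPM in heart Tregs and at 0, 4.35 and 19.6 CPM in heart Tconvs, but NDLN Treg 1 held 5.43 CPM, above heart Treg 1. Col1a2 stood at 20.7, 18.2 and 29.8 CPM in heart Tregs and at 0, 13.5 and 12.0 CPM in heart Tconvs, and reached 3.15 CPM in spleen Tconv 2, 2.51 CPM in spleen Treg 1 and 1.82 CPM in MLN Treg 3.

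The ratios of heart to lymphoid counts were 36.4 (30.6 to 43.5) for Col1a1 and 29.7 (25.4 to 34.8) for Col1a2, with adjusted p of 0.00915 and 0.0216. The lymphoid Col1a1 and Col1a2 reads lay in different libraries, apart from NDLN Treg 3, which had 0.04 CPM of each. The minor fibrillar chains Col5a1 and Col5a2, which start fibrils, reached 6.45 CPM in heart Treg 3 and 11.1 CPM in heart Tconv 3, with adjusted p of 0.0143 each. Col5a1 was not called by DESeq2 (adjusted p 0.0768), nor Col5a2 with a replicate block (0.0554).

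Of the 7 other collagen members, 3 passed the filter and Col6a1 alone was called. Col6a1, a chain of the beaded-filament type VI collagen, stood at 0, 29.2 and 5.12 CPM in heart Tregs and at 0, 4.47 and 13.9 CPM in heart Tconvs and had no lymphoid count, so it was at least 974-fold higher in heart, with the lymphoid total set to a floor of 3 counts (adjusted p 0.0121). The partner chains did not follow it: Col6a2 had 4 heart counts in all, and Col6a3 had 12.1 CPM in heart Treg 2 and at most 0.041 CPM in the other heart libraries. Col14a1, a collagen that sits on the surface of fibrils, had 26.3 CPM in heart Treg 3 and none in lymphoid libraries. The basement membrane chains Col4a1 and Col4a2 share a start region and are made as partners. Col4a1 reached 6.90 CPM in heart Treg 3 but also 6.62 CPM in spleen Tconv 1 and was not called (adjusted p 0.0522). DESeq2 called it (1.92e-05), as did edgeR without the filter (0.0413) and without spleen Tconv 1 (0.0433). Its partner Col4a2 had 8 heart counts, all in heart Tconv 3.

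Of the glycoproteins and elastic fibre genes, 4 of 5 tested members were called higher. Fibronectin (Fn1), an early scaffold of the wound that also exists as a plasma protein, stood at 35.4, 99.3 and 39.0 CPM in heart Tregs and at 0, 2.22 and 18.2 CPM in heart Tconvs. One lymphoid library, spleen Treg 2, had 1.34 CPM and the others at most 0.0866 CPM. The ratio was 241 (179.6 to 330.5) and the adjusted p 0.00132.

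Periostin (Postn), the matricellular protein that marks activated cardiac fibroblasts after infarction, stood at 31.1, 5.14 and 101 CPM in heart Tregs and at 0, 44.2 and 9.09 CPM in heart Tconvs. Only 3 Postn counts were found in lymphoid libraries, a ratio of 3590.4 (1228 to 17416) with an adjusted p of 0.000561. Its order over the heart libraries was not that of Dcn, since heart Treg 2, the highest library for Dcn, was lower in Postn than every other heart library except heart Tconv 1. Fibulin 2 (Fbln2) reached 38.2 CPM in heart Treg 3 and 10.02 CPM in MLN Treg 2 and was called (adjusted p 0.0183). Fibulin 1 (Fbln1) was highest in a lymphoid library, NDLN Tconv 2 with 32.1 CPM, and reached 8.76 CPM in heart, with an adjusted p of 0.0582 that became 0.0413 without NDLN Tconv 2, 0.00783 without the filter and 8.27e-06 with DESeq2. Elastin (Eln), the core of elastic fibres, had 250 counts over the heart libraries and none in the lymphoid libraries, at least 188-fold higher, and reached 5.54 CPM. DESeq2 did not call it (adjusted p 0.0725). Fibrillin 1 (Fbn1) did not pass the filter, with 5.96 CPM in heart Treg 3 and at most 0.175 CPM elsewhere in heart.

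Bgn, Col3a1, Dcn, Fn1, Mgp and Postn were the 6 members called higher in heart under all 30 settings tried. Of the 37 members, 24 had a promoter window in RefSeq on GRCm38.p6, among them Bgn, Col3a1 and Postn, and the 150 bases before their annotated starts are shown because these genes stood out together. Each is read 5′ to 3′ on the plus strand, the strand of the gene, and capitals mark the matches found on either strand to the TATA box, searched as TATAAA. The CCAAT box, searched as these letters, and the GC box, whose searched letters were GGGCGG, are also in capitals where found. A GC box on the minus strand appears here in its complementary letters.
Bgn, chrX:73483451-73483600: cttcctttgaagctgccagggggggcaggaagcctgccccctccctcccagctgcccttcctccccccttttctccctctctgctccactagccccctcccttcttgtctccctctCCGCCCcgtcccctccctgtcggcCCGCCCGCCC
Col3a1, chr1:45311388-45311537: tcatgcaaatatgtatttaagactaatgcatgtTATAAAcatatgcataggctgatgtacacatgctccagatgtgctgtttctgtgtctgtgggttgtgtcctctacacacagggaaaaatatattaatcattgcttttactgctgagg
Postn, chr3:54360957-54361106: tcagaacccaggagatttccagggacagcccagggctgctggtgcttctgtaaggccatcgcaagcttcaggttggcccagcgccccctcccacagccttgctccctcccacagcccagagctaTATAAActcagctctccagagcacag
The Bgn window held 3 GC box matches on the minus strand, with first bases at positions -34, -10 and -6 from the start, of which the last pair overlap. The Col3a1 window held a TATA box match with its first base at -117 from the start, and the Postn window one with its first base at -26. A second RefSeq start of Postn had none of these motifs. Of all 32851 mouse promoter windows of this length, 7.57% held the searched TATA box, 24.5% the CCAAT box and 28.6% the GC box. None of the motifs was in all 3 windows.

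**Figure D2:**
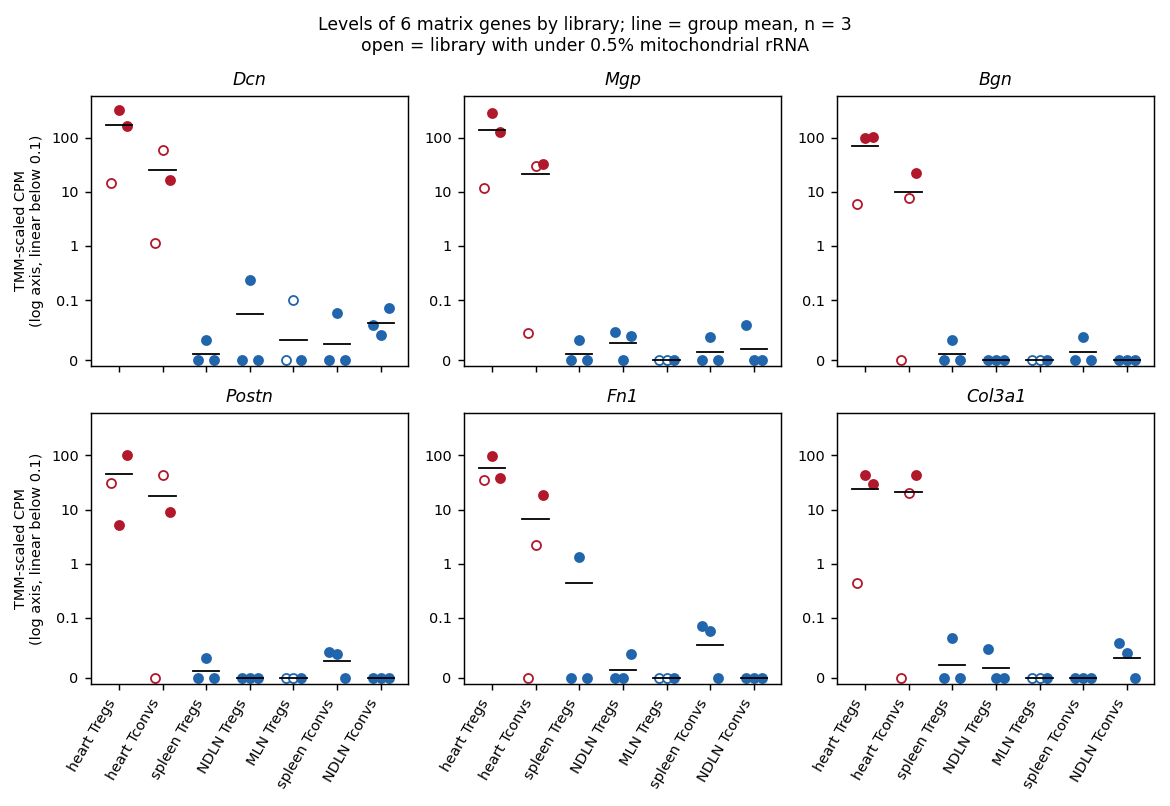
TMM-scaled CPM of Dcn, Mgp, Bgn, Postn, Fn1 and Col3a1 in each library (points), with the mean of each group of 3 (line), on a log axis that is linear below 0.1. Heart libraries are red and lymphoid libraries blue, and open points are the 5 libraries with little mitochondrial ribosomal RNA. Heart Tconv 1 lies at or near 0 in all 6 panels except Dcn, where it has 1.13 CPM.

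Genes for folding and processing collagen were low and found mostly in heart. The collagen chaperone Serpinh1 reached 14.6 CPM in heart Treg 3 and 10.9 CPM in heart Treg 2, was 0 in heart Treg 1 and heart Tconv 1, and had no lymphoid count, at least 548-fold higher (adjusted p 0.0162). Pcolce, which helps to trim procollagen, reached 3.52 CPM, with 4 lymphoid counts and an adjusted p of 0.0144. It was not called by DESeq2 (adjusted p 0.122) or with a replicate block (0.0653). Of the lysyl oxidase family, which cross-links collagen and elastin, Loxl1 was called (adjusted p 0.0322) on reads from heart Treg 2 and heart Tconv 3 alone, at 5.38 and 5.68 CPM. It was no longer tested without heart Treg 2 or without heart Tconv 3, and the call was lost without any 1 of the 6 lymphoid Tconv libraries (adjusted p 0.0598 to 0.0678). Nor was it called by limma-voom (0.268), with the replicate block (0.0945) or with the mitochondrial RNA set as a covariate (0.0824). Lox was at 0.435 CPM in heart Treg 2 and 0 in the other heart libraries, and reached 2.28 CPM in spleen Treg 2. Loxl2 did not pass the filter and reached 2.58 CPM in heart Treg 3.

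The protease and its inhibitors differed among themselves. Mmp2, a gelatinase, was found at 21.2 CPM in heart Treg 2 and 1.63 CPM in heart Treg 1, with 1 lymphoid count. Timp1, the inhibitor induced in injury, reached 14.4 CPM in heart Tconv 2 and 10.1 CPM in heart Treg 3, was 0 in heart Treg 2, and had no lymphoid count (at least 542-fold higher, adjusted p 0.0169). With the mitochondrial RNA set as a covariate Timp1 was not called (adjusted p 0.0643). Timp3 had no count in heart and 1 in lymphoid libraries.

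Of the receptors and the transcription factor used to define cardiac fibroblasts, Tcf21 was not found, Pdgfra was nearly absent, and Pdgfrb was found mainly in heart Treg 3. Tcf21, a transcription factor of cardiac fibroblasts, had no count in any of the 21 libraries. Pdgfra, the receptor most used to identify them, had 6 counts in heart, all in heart Tconv 2 and heart Tconv 3, and 3 in lymphoid libraries, a ratio of 4.50 (0.961 to 27.8). Pdgfrb, a receptor of pericytes and fibroblasts, had 4.29 CPM in heart Treg 3, 0.393 CPM in heart Tconv 3 and 0 in the others. It had no lymphoid count and did not pass the filter, and edgeR without the filter called it higher in heart. The label of fibroblast transcripts thus rests mainly on secreted matrix genes, with Tcf21 at 0, Pdgfra near 0 and Pdgfrb mainly in heart Treg 3.

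Timp2, Gsn and Col15a1 had the most lymphoid counts of the members, 18348, 2388 and 918, and were set apart after their values were seen. Timp2, an inhibitor of metalloproteinases, stood at 293, 85.1 and 75.3 CPM in heart Tregs and at 59.0, 81.2 and 46.9 CPM in heart Tconvs, against a lymphoid range of 0.0418 to 252 CPM with a median of 22.9 CPM. It was present in all 21 libraries, and the highest lymphoid values were 241 and 252 CPM in MLN Tregs 1 and 2, with 17.9 CPM in MLN Treg 3. Its ratio of heart to lymphoid counts was 1.86 (1.82 to 1.90) and it was not called by edgeR (log2 fold change 1.62, SE 0.59, adjusted p 0.0801) but was by DESeq2 (adjusted p 0.0328). It was called by edgeR without the MLN Tregs (adjusted p 0.0342), without NDLN Tconv 2 (0.0299) and without the filter (0.0123).

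Gelsolin (Gsn), an actin-severing protein found in many cells and in plasma, stood at 44.0, 2.37 and 30.4 CPM in heart Tregs and at 9.46, 52.6 and 0 CPM in heart Tconvs. In MLN Tregs 1 and 2 it stood at 55.4 and 47.2 CPM, and in the other 13 lymphoid libraries at most at 3.51 CPM. The 5 libraries with little mitochondrial ribosomal RNA thus all had at least 9.46 CPM. Its adjusted p of 0.00352 went to 0.187 with that set as a covariate, and the ratio of counts was 3.16 (2.998 to 3.33).

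Col15a1, a collagen of the basement membrane zone, was found mainly in Tregs of every tissue. It stood at 4.45, 0 and 3.76 CPM in heart Tregs and at 0, 0 and 2.62 CPM in heart Tconvs. In lymphoid Tregs it was found in 8 of 9 libraries, at up to 9.16 CPM, and in lymphoid Tconvs in 1 of 6, at 0.39 CPM. In the spleen, Tregs held 9.16, 4.63 and 4.67 CPM and Tconvs 0.39, 0 and 0 CPM, 451 against 9 counts. The edgeR adjusted p was 0.656 for spleen Tregs against spleen Tconvs and 0.425 for NDLN Tregs against NDLN Tconvs, so neither passed the test. Of the 24 members tested, 0 were called by edgeR in either comparison, with 2 at an unadjusted p under 0.05 in each, where 0.06% and 0.3% of all genes were called in either direction. DESeq2 called Fbln2 higher and Col4a1 lower in spleen Tregs (5.99% of all genes called) and Fbln1 lower in NDLN Tregs (10.9%), each on reads of a single library, with only 2 counts for Fbln2. With limma-voom 0 members were called in either, against 0.907% of all genes in spleen and 1.7% in NDLN.

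**Figure D3:**
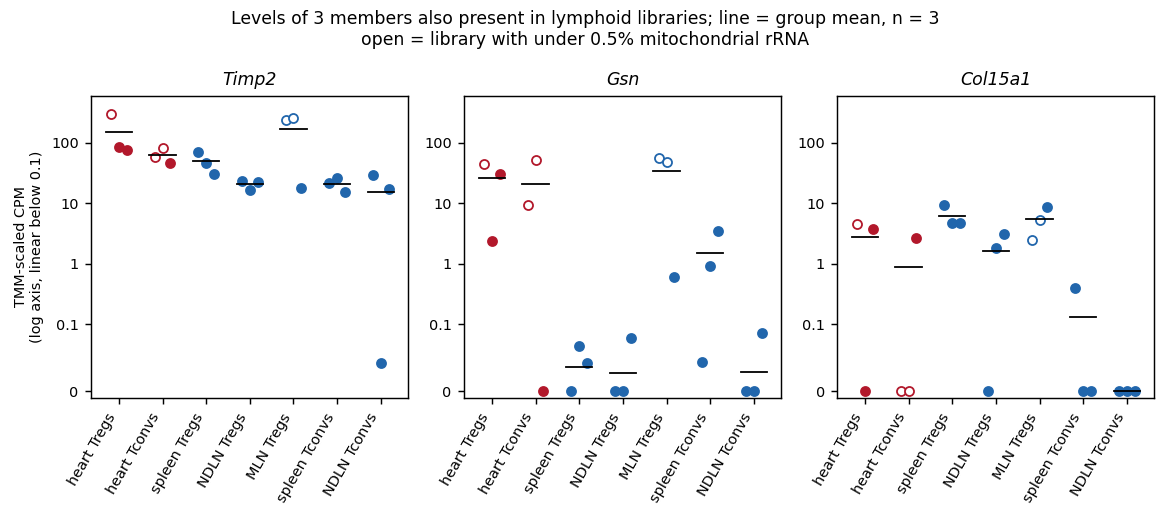
TMM-scaled CPM of Timp2, Gsn and Col15a1 in each library (points) with the mean of each group of 3 (line), on a log axis that is linear below 0.1. Heart libraries are red and lymphoid libraries blue. The open points, libraries with little mitochondrial ribosomal RNA, are the high ones of the MLN Tregs for Timp2 and Gsn, and Col15a1 is found in Treg groups of every tissue.

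Taking each heart group against its lymphoid counterpart with 3 libraries a side left fewer members past the test, and the number depended on the tool. In heart Tregs against spleen Tregs 2 of 24 members were called, Dcn and Mgp (adjusted p 0.0222 and 0.0363), against 0.0934% of all genes called higher. The same 2 genes were called against NDLN Tregs (adjusted p 0.0225 and 0.0263; 0.32% of all genes) and against MLN Tregs (adjusted p 0.0482 and 0.0471; 0.0467% of all genes). In heart Tconvs, Dcn was called against spleen Tconvs (adjusted p 0.0442; 0.307% of all genes), where Mgp had an adjusted p of 0.053. Both were called against NDLN Tconvs (adjusted p 0.0235 each; 1.54% of all genes). With DESeq2 the members called higher numbered 11 against spleen Tregs (3.1% of all genes), 14 against NDLN Tregs (5.79%), 9 against MLN Tregs (2.12%), 9 in heart Tconvs against spleen Tconvs (5.96%) and 11 against NDLN Tconvs (12.8%). With limma-voom they numbered 11 against spleen Tregs (0.734% of all genes), 10 against NDLN Tregs (1.34%) and 10 against MLN Tregs (0.54%), and 0 in heart Tconvs against spleen Tconvs (1.37%) and against NDLN Tconvs (5.39%). The comparisons share their heart libraries and so are not independent of each other. Each of the edgeR calls was lost when any 1 of the 3 lymphoid libraries of its comparison was left out (adjusted p 0.0506 to 0.3). Those in heart Tregs were also lost without heart Treg 2 (0.104 to 0.308) or heart Treg 3 (0.0539 to 0.128), those in heart Tconvs without heart Tconv 2 (0.0661 to 0.166), and that of Dcn against spleen Tconvs without heart Tconv 1 (0.0564). With 1 library of the comparison left out, 0.0181% to 0.0963% of all genes were called higher against spleen Tregs. The shares were 0.048% to 0.27% against NDLN Tregs and 0.00602% to 0.0665% against MLN Tregs. In heart Tconvs they were 0.012% to 0.373% against spleen Tconvs and 0.477% to 1.27% against NDLN Tconvs.

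By the libraries themselves, 10 of the 24 members tested lay above all 9 lymphoid Treg libraries in every heart Treg library, against 2.27% of all genes tested. They were Col1a2, Col3a1, Dcn, Lum, Bgn, Mgp, Igfbp7, Fn1, Postn and Eln. For Col3a1 and Eln this rested on few reads, with 10 and 2 counts in heart Treg 1. Members passed the filter mostly through their heart libraries. This count, like those of members called in each comparison above, thus describes these genes and is no support for them as a group. In Tconvs, with heart Tconv 1 nearly empty of these transcripts, 3 did so over all 6 lymphoid Tconv libraries, Col5a2, Dcn and Timp2, against 9.16% of all genes tested, a share near the background. Col5a2 had only 2 counts in heart Tconv 1.

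Between heart Tregs and heart Tconvs no member passed the test. Of 24 members, 0 were called by edgeR, 0 by DESeq2 and 0 by limma-voom, which called 0.0667%, 6.54% and 1.37% of all genes in either direction. At an unadjusted p under 0.05 the members numbered 0 with edgeR, 0 with DESeq2 and 4 with limma-voom. Dcn averaged 169 ± 154 CPM in heart Tregs and 25.2 ± 29.6 CPM in heart Tconvs (SD, n = 3 each), with a log2 fold change of 2.74 (SE 1.5, adjusted p 0.611). Fn1 averaged 57.9 ± 35.9 CPM in heart Tregs and 6.81 ± 9.94 CPM in heart Tconvs (SD, n = 3 each), with an adjusted p of 0.817. Fn1 and Col1a2 were the members whose heart Treg libraries all lay above the heart Tconv libraries, 2 of 24 against 4.07% of all genes. Col3a1 averaged 24.4 ± 21.8 CPM in heart Tregs and 21.2 ± 21.6 CPM in heart Tconvs (SD, n = 3 each). No member was called in the test of whether the heart effect differed between Tregs and Tconvs, by edgeR, DESeq2 or limma-voom, which called 0.00667%, 7.38% and 0.5% of all genes in either direction. At an unadjusted p under 0.05 the members numbered 0, 2 and 2 in that order of tools.

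The 6 heart libraries differed widely in their levels of these transcripts. Over the 34 members without Timp2, Gsn and Col15a1, the summed level was 182, 1036 and 877 CPM in heart Tregs 1 to 3 and 16.7, 273 and 222 CPM in heart Tconvs 1 to 3, against 0 to 32.2 CPM in the lymphoid libraries. The value of 32.2 CPM, in NDLN Tconv 2, came almost wholly from Fbln1, and it lay above heart Tconv 1. With all 37 members the sums were 524, 1124 and 987 CPM in heart Tregs and 85.1, 407 and 271 CPM in heart Tconvs, against up to 318 CPM in MLN Treg 2 through Timp2 and Gsn. Heart Tconv 1 had the lowest or tied lowest heart value in 33 of 37 members, and its sum was almost wholly Igfbp7. Heart Treg 3 was the highest heart library for 15 members, heart Treg 2 for 9, heart Tconv 3 for 5, heart Tconv 2 for 4 and heart Treg 1 for 2.

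**Figure D4:**
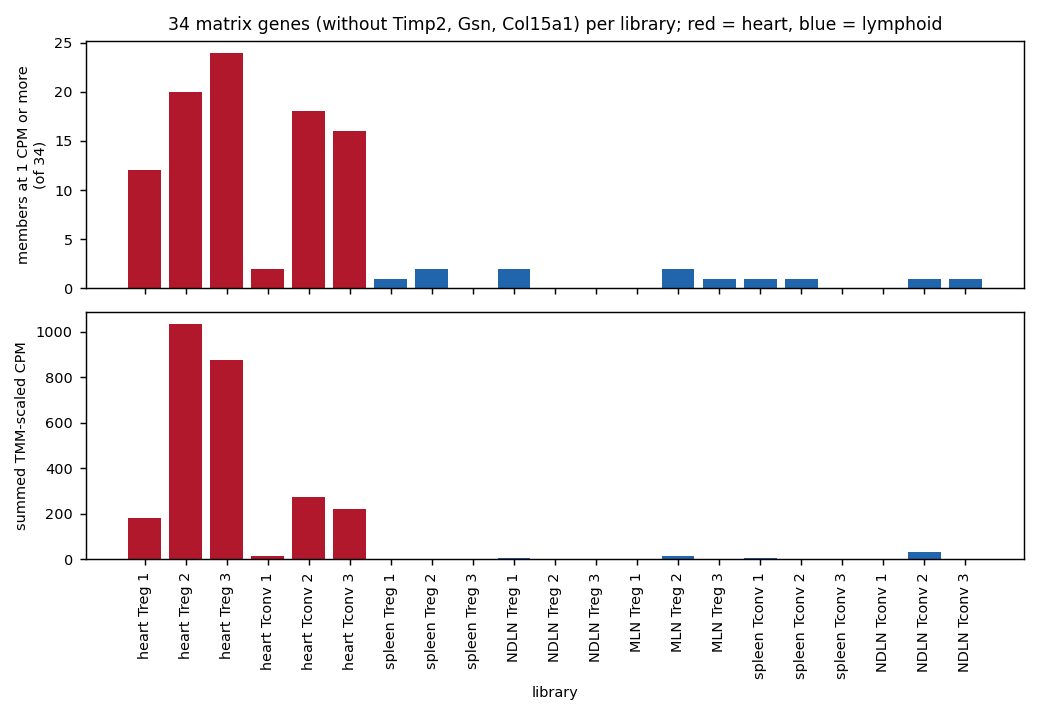
Number of the 34 members other than Timp2, Gsn and Col15a1 at 1 CPM or more (upper bars) and their summed TMM-scaled CPM (lower bars) in each library, heart in red and lymphoid in blue. The heart libraries hold 12, 20 and 24 such members in Tregs and 2, 18 and 16 in Tconvs, and no lymphoid library holds more than 2.

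The members did not rise and fall as one over the heart libraries. The ratio of Dcn to Mgp counts within a library was steady in heart Tregs, at 1.22, 1.14 and 1.32 in libraries 1 to 3, and varied in heart Tconvs, at 25 (25 counts against 1), 1.92 and 0.49. The ratio of Dcn to Postn counts was 0.463, 62.9 and 1.66 in heart Tregs and 1.32 and 1.798 in heart Tconvs 2 and 3, so heart Treg 2 held much Dcn and little Postn. The ratio of Col1a1 to Col1a2, whose products join in a single protein, was 0.0448, 0.706 and 1.67 in heart Tregs and 0.321 and 1.63 in heart Tconvs 2 and 3. Heart Treg 1 had proteoglycans, Fn1 and Postn without the folding and cross-linking genes, whose sum was 0 there, against 20.2 and 18.9 CPM in heart Tregs 2 and 3. Several members rested on a single library, among them Col14a1, Dpt and Fbn1 in heart Treg 3 and Col6a3 and Mmp2 in heart Treg 2. With 6 libraries in 2 cell types and 2 technical sets, no correlation across libraries was computed.

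**Figure D5:**
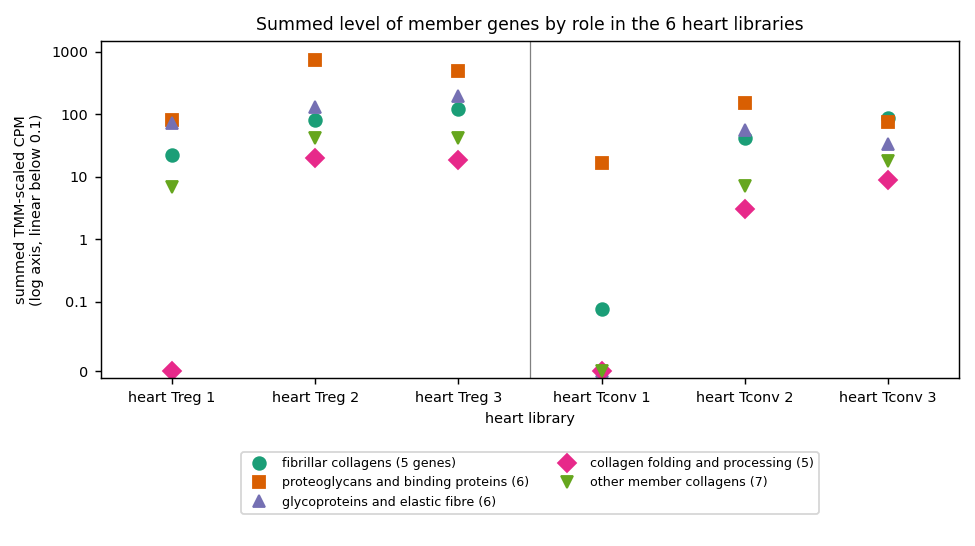
Summed TMM-scaled CPM of 29 members in 5 roles in each of the 6 heart libraries, on a log axis that is linear below 0.1, without the metalloproteinase and receptor roles that hold Timp2 and Gsn. Of the roles drawn, the proteoglycans and binding proteins are the highest in every heart library except heart Tconv 3, where fibrillar collagens stand at 87.6 CPM and they at 75.6 CPM, and the collagen folding genes are at 0 in heart Treg 1 and heart Tconv 1.

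Matrix genes outside the 37 were called higher in heart in part, and none lower, where 7.61% of all genes tested were called higher. Of 25 other matrix glycoproteins and proteoglycans tested, 11 were called higher and 0 lower, with a median log2 fold change of 3.998 over those tested. Sparc, a collagen-binding glycoprotein, stood at 39.0, 145 and 124 CPM in heart Tregs and at 0.135, 94.1 and 88.2 CPM in heart Tconvs, against at most 3.04 CPM in a lymphoid library (adjusted p 0.000111). Mfap5, a microfibril protein, stood at 6.30, 68.7 and 58.7 CPM in heart Tregs and at 0.135, 13.4 and 22.2 CPM in heart Tconvs, against at most 0.872 CPM. Both were near 0 in heart Tconv 1, as most members were. The others called were Aspn, Efemp2, Emilin2, Hspg2, Ltbp2, Ltbp4, Mfap4, Smoc2 and Thbs3. Igfbp4 and Ecm1, the other abundant genes of the list, averaged 85.1 and 39.7 CPM in heart libraries and 30.8 and 41.7 CPM in lymphoid libraries and were not called.

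Of 7 other collagens tested, Col8a1 and Col28a1 were called higher and 0 lower, and Col8a1, a short-chain collagen of vessels and scars, reached 14.5 CPM in heart Treg 3 with no lymphoid count. Of 15 collagen biosynthesis enzymes, Adamts2, P3h1, P4ha1 and P4hb were called higher and 0 lower. P4hb, a subunit of prolyl hydroxylase that also serves as a general disulphide isomerase, averaged 145 CPM in heart and 60.9 CPM in lymphoid libraries, and it did not follow the members, with 169 CPM in heart Tconv 1. Ppib averaged 155 CPM in heart and 193 CPM in lymphoid libraries and was not called. Of 6 other proteases and inhibitors, Serpine2 was called higher and 0 lower, and it reached 32.7 CPM in heart Treg 3. Of 10 other fibroblast and myofibroblast genes tested, Acta2, Ccn2, Ccn4, Lsp1 and Vim were called higher and 0 lower. Lsp1 and Vim are also abundant in T cells, with lymphoid means of 412 and 254 CPM, and Thy1, a marker of fibroblasts and of mouse T cells, averaged 120 CPM in heart and 122 CPM in lymphoid libraries.

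The 6 defining fibroblast markers, Dcn, Lum, Col1a1, Dpt, Pdgfra and Tcf21, are all members, so their sums restate values given above. They summed to 32.6, 359 and 242 CPM in heart Tregs and to 1.13, 72.5 and 39.4 CPM in heart Tconvs, against 0 to 5.43 CPM in lymphoid libraries. Markers of other cell types, none of them members, were higher in some heart libraries for some types and in some lymphoid libraries for others. Their part in the result was not tested. The highest erythroid sum was 32.9 CPM in heart and 27720 CPM in lymphoid libraries, and the highest B cell sums 39.5 and 452 CPM. In the same order the highest sums were 10.04 and 142 CPM for neutrophil and 190.2 and 376 CPM for dendritic cell markers. For Schwann cell markers they were 143 and 418 CPM, and for lymph node stroma 12.85 and 12.5 CPM. Of 12 endothelial markers, 7 reached 1 CPM in some heart library, and their sum was 17.0 to 285 CPM in heart and 13.7 to 93.4 CPM in lymphoid libraries, with Cldn5 and Tie1 at 0 in heart. The highest sum, in heart Treg 2, was mainly Fabp4 with 185 CPM. The lymphoid sums were mostly Pecam1, at 13.7 to 93.4 CPM there and 13.0 to 87.9 CPM in heart. Kdr had 2.14 CPM in heart Treg 2 and no lymphoid count. Cdh5 reached 1.92 CPM in heart and 0.275 CPM in lymphoid libraries, and Egfl7 14.3 and 7.01 CPM. Vwf was highest in MLN Treg 1, at 2.01 CPM. Of 11 mural cell markers, 4 reached 1 CPM in heart, with sums of 9.03 to 55.6 CPM in heart and 0 to 24.9 CPM in lymphoid libraries, Abcc9 and Cnn1 at 0 in heart. Of 12 cardiomyocyte markers, 5 reached 1 CPM in heart, with sums of 18.1 to 67.9 CPM in heart and 0 to 57.5 CPM in lymphoid libraries, Nppa and Tnni3 at 0 in heart. Actn2 made up most of this sum in heart Tregs 1 and 3 (41.1 and 67.7 CPM) and heart Tconvs 1 and 2 (29.3 and 44.9 CPM). It had 0.0395 CPM in heart Treg 2 and 22.0 CPM in heart Tconv 3, and reached 57.5 CPM in spleen Tconv 2. Actc1 stood at 16.49 CPM in heart Treg 2 and 14.03 CPM in heart Tconv 3, and Mb at 1.38 and 2.49 CPM there. Myl2 reached 4.37 CPM in heart Tconv 3, and Actc1, Mb and Myl2 had no lymphoid count. Pln and Ryr2 were highest in lymphoid libraries, at 13.01 CPM in NDLN Tconv 1 and 5.58 CPM in MLN Treg 3. Of 12 macrophage markers, 8 reached 1 CPM in heart, with sums of 0.0379 to 147 CPM in heart and 0 to 71.1 CPM in lymphoid libraries, Csf1r and Fcgr1 at 0 in heart. The highest macrophage sum, 147 CPM, was in heart Tconv 1, the heart library lowest in matrix transcripts. Of 5 mesothelial markers, 3 reached 1 CPM in heart, with sums of 0 to 12.4 CPM in heart and 0 to 0.234 CPM in lymphoid libraries.

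The number of members called higher in heart varied with the setting, as did the share of all genes called. The 16 libraries of the larger technical set, which keep 2 heart Tregs and 1 heart Tconv and pass more genes through the filter, gave 6 of 32 members called higher, against 0.621% of all genes tested. Those were the 6 called under every setting, and the median log2 fold change of the members tested there was 7.59, against 8.15 in all libraries. With the technical set as a covariate 16 of 24 members were called higher, against 2.61% of all genes, with a median of 8.39. The replicate block gave 17 of 24 (5.21% of all genes), and the fit without the filter 27 of 36 (6.44%).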

How the data were processed

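RNA of sorted T cells was sequenced in 21 libraries, 7 groups of 3 by the titles. The authors deposited a raw count for each gene and library. CASAVA 1.8.2, HISAT2 and HTSeq 0.6.0 with build mm10 are named per the submitters' processing notes. Which annotation and strand setting served, and how reads with several matches were counted, is not given in the sources used here. Gene positions and exonic lengths are from GENCODE M21 on GRCm38 and promoter windows from RefSeq.

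Genes were kept by filterByExpr (minimum count 10, minimum total 15). All 21 libraries entered 1 edgeR 4.0.16 quasi-likelihood fit (R 4.3.3, TMM factors 0.798 to 1.35, robust) with a coefficient per group, and genes were called at a Benjamini-Hochberg adjusted p under 0.05 over all 14996 tested. Heart against lymphoid averaged a Treg and a Tconv difference with equal weight. Each was the coefficient of the heart group minus the mean over the lymphoid groups of that cell type. The common dispersion was 2.19, and across genes, which are not independent, Pearson's r between replicates was 0.663 to 0.804. The fit was tested on simulated counts. Ratios are of pooled counts over pooled scaled library sizes with exact conditional binomial intervals, and a total of 0 was set to 3 counts over the group. DESeq2 1.42.0, limma-voom (limma 3.58.1), no filter, other scaling, a replicate block, the mitochondrial RNA set and leaving out each library were the alternatives.

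Members and lists were chosen with earlier results of these data known. Named in full were Dcn, Mgp, Col1a1, Col1a2 and Col3a1, the 10 members highest in heart, the 5 highest in lymphoid libraries, every called member, and Pdgfra, Tcf21, Dpt and Postn. Of the other lists, up to 3 genes highest in heart and any called gene were named. No column was left unused. A gene of the marker lists is not reported here.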

Additional observations from a re-analysis of the deposited data

How the results depend on the processing

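The members called in heart against lymphoid libraries, 20 of 24, numbered 6 of 32 in the 16 libraries with more mitochondrial ribosomal RNA, 16 with that set as a covariate, 17 with a replicate block, 27 of 36 without the filter, and 19 to 23 with 1 library left out. All genes called higher were 7.61% as reported and, in that order, 0.621%, 2.61%, 5.21%, 6.44% and 3.82% to 7.9%. In heart Tregs or Tconvs against a lymphoid counterpart, the fit without the filter called 0.26% to 1.99% of all genes higher and the replicate block 0.02% to 1.61%, against 0.0467% to 1.54% as reported. Members called in heart Tregs against spleen Tregs (2 in the fit reported) numbered 11 with DESeq2, 11 with limma-voom, 5 without the filter and 1 with the replicate block. Against NDLN Tregs (2) they numbered 14 with DESeq2, 10 with limma-voom and 6 without the filter. Against MLN Tregs (2) they numbered 9 with DESeq2, 10 with limma-voom, 5 without the filter and 1 with the replicate block, and 0 with DESeq2 size factors in edgeR, with the set as a covariate, in the 16 libraries and in the other 5. In heart Tconvs against spleen Tconvs (1) they numbered 9 with DESeq2, 0 with limma-voom, 4 without the filter, 2 with the replicate block, and 0 with the covariate and in the 16 libraries. Against NDLN Tconvs (2) they numbered 11 with DESeq2, 0 with limma-voom, 7 without the filter, and 1 with the replicate block, with the covariate and in the 16 libraries. DESeq2 called 2 members in spleen Tregs against spleen Tconvs and 1 in NDLN Tregs against NDLN Tconvs, where edgeR called 0. With 1 library left out, the counts ran from 0 to 2 in heart Tregs against spleen, NDLN and MLN Tregs and in heart Tconvs against NDLN Tconvs, from 0 to 1 against spleen Tconvs, and stayed at 0 in the comparisons of Tregs with Tconvs. All genes called higher in those fits were 0.00602% to 1.27% in heart against a lymphoid counterpart. They were 0.0122% to 0.509% in Tregs against Tconvs of the same tissue. The cause of these shifts was not tested; the unfiltered fit tests more genes, and a fit without 1 library has a lower sample size for its filter.

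Col15a1, not called in heart against lymphoid libraries, had log2 fold changes of 2.26 as reported, -0.23 with limma-voom, and from -1.38 (without heart Tconv 3) to 3.41 (without spleen Tconv 1) with 1 library left out. DESeq2 size factors gave 49 genes higher and 20 lower in heart Tregs against NDLN Tregs, against 48 and 32 as reported, and 1 and 1 against MLN Tregs, against 7 and 3. The deviations of same-numbered libraries from their group means had correlations of -0.061 to 0.184. Differently numbered libraries were not compared, so whether the numbers pair the samples was not settled. At this depth a member without a count may still be present below detection.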
